A study of Mus musculus with 23 samples.

Results

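The 11 libraries described here hold the organoid fraction of cultures in which mouse pancreatic tumour organoids grew together with pancreatic stellate cells (PSCs), and they make up 11 of the 23 libraries of the series. They were chosen by the ending of their titles, which marks the organoid side of the sort. In 7 libraries the PSCs were Egfr KO clones and in 4 they were Rosa PSCs, whose genotype the labels give as WT. The genotype belongs to the PSCs: the organoid lines, T6-LOH, T12-LOH and T69A, are not described as edited and were shared by both groups. The titles name the KO lines A3 and B4 under PSC4 and C5 and D4 under PSC5, read here as single clones of these parents, so that each stands for 1 clone only. KO library 4 came from T69A with clone B4, libraries 7 and 8 from T6-LOH with clones A3 and B4, libraries 11 and 12 from T12-LOH with clones A3 and B4, and libraries 15 and 16 from T6-LOH with clones C5 and D4. Their Rosa counterparts were library 2 (T69A), library 6 (T6-LOH) and library 10 (T12-LOH), all with PSC4 Rosa, and library 14 (T6-LOH with PSC5 Rosa), so that a co-culture of 1 organoid line and 1 PSC parent has 1 Rosa library and 1 or 2 KO libraries that share it. The organoids of T69A with clone A3 were not analysed here. Both cell types were kept together in Matrigel, a basement membrane gel, for 3.5 days in reduced or control medium, were separated by flow sorting, and total RNA was sequenced. The sources used here give neither how Egfr was disrupted nor the animals' strain and age. The labels do not say that the libraries of a group came from separate experiments, so a p-value below measures the spread between these libraries, which may be technical.

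Pancreatic stellate cells are the mesenchymal cells of the pancreas that become the fibroblasts of a pancreatic tumour, lay down its matrix and send growth factors, cytokines and contact signals to the tumour epithelium. The tumour epithelium in turn makes growth factors, among them ligands of the epidermal growth factor receptor (EGFR), which is present on both cell types. The comparison asks how the gene expression of tumour organoids differs when the stellate cells beside them carry the Egfr KO.

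The organoid libraries held 23814409 to 34643087 counts each and were epithelial. The keratin Krt8 averaged 3310 CPM (counts scaled to a fixed library total) with KO PSCs and 3366 CPM with Rosa PSCs. The summed level of 25 epithelial markers ran from 17640 to 27050 CPM with KO PSCs and from 18140 to 24010 CPM with Rosa PSCs. Summed immune markers stayed between 13.3 and 24.1 CPM with KO PSCs and between 19.7 and 32.9 CPM with Rosa PSCs, and summed endothelial markers between 2.65 and 18.4 CPM with KO PSCs and between 4.42 and 22.9 CPM with Rosa PSCs. The largest differences among libraries followed the organoid line: T6-LOH, T12-LOH and T69A lay apart on a pair of principal components that carried 54.1% and 30.1% of the variance. A trace of stellate cell RNA remained after the sort, and it differed between the groups. Estimated from 27 genes of the PSC fraction, it made up 0.0111 to 0.0519% of the counts with KO PSCs (median 0.0359%) and 0.0317 to 0.165% with Rosa PSCs. The reference for both groups was the mean level in Rosa PSC libraries, so marker levels that differ in KO PSCs also move the share. PSC levels were compared for the 14 fibroblast and stellate markers that passed the low-count filter in the organoids. This set is not the 27 genes of the share: S100a4, for example, is not 1 of the 27. In the PSC fraction the median log2 difference of these 14 ran from -0.72 (clone C5) to 0.31 (T12-LOH with clone B4). It was above 0 in 5 of 7 KO cultures. The share was lower in 7 of 7 KO libraries than in their own Rosa library, by a log2 difference of -1.12 (exact two-sided permutation test within co-cultures, p = 0.0185, the smallest this design allows). The summed level of the fibroblast and stellate markers, some of which the organoids also express, ran from 49.9 to 463 CPM with KO PSCs (median 76.2) and from 79.4 to 560 CPM with Rosa PSCs. It was lower in 6 of 7 KO libraries, by a log2 difference of -0.61 that did not pass (exact two-sided permutation test within co-cultures, p = 0.111). The level that this trace would give on its own was therefore computed for each gene and is given below for several of them.

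Organoids grown with KO PSCs differed from organoids grown with Rosa PSCs in many genes by small amounts. Of 13939 genes tested with edgeR's quasi-likelihood test, with the co-culture as block and Benjamini-Hochberg adjustment, 1441 (10.3%) passed an adjusted p of 0.05: 597 (4.28%) were higher and 844 (6.05%) were lower with KO PSCs. "Rose" and "fell" below refer to genes that passed this test, in organoids with KO PSCs relative to organoids with Rosa PSCs. The median size of the change among them was 0.30 on the log2 scale, and only 22 rose and 68 fell by more than 2-fold. The direction was shared by the co-cultures for most of them: 1387 of the 1441 lay on the same side in all 4, and 490 were higher and 736 lower than their own Rosa library in 7 of 7 KO libraries. Among all genes tested, 8.16% were higher and 10.3% lower in 7 of 7. The ranges of all 7 KO and all 4 Rosa libraries were apart for 83 genes (0.595%).

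**Figure D1:**
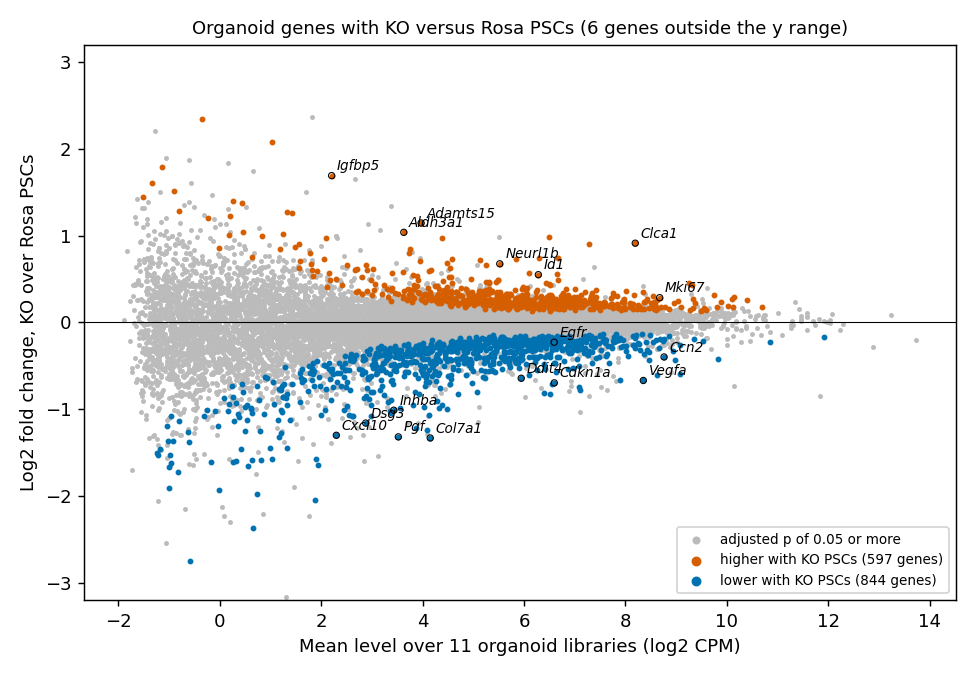
Log2 fold change of each of the 13939 tested genes in organoids, KO over Rosa PSCs, against its mean level over the 11 libraries in log2 CPM. Orange points are the 597 genes that rose, blue points the 844 that fell and grey points genes that did not pass; 6 genes lie outside the plotted range.

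The count depended on the libraries in the fit. Without Rosa library 14, the only reference of both PSC5 clones, 214 genes passed, and without the whole PSC5 co-culture 189. Without Rosa library 2 or KO library 4, the 2 members of the T69A co-culture, the counts were 427 and 440. Leaving out Rosa library 10 gave 886 genes, KO library 7, 11, 15 or 16 gave 826, 844, 857 and 713, and the count was 1910 with Rosa library 6 left out, 1697 with KO library 8 left out and 1417 with KO library 12 left out. Without the co-culture block no gene passed an adjusted p of 0.05 by edgeR's quasi-likelihood test. At an unadjusted p of 0.05, 520 of 13939 passed, fewer than the share of 0.05 that would pass with no difference. That fit leaves the differences between organoid lines in its spread. Its low count therefore does not show that the groups are alike.

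Genes of cell division were higher in organoids with KO PSCs. Of 50 genes of mitosis and the G2/M phase, 23 (46.0%) rose and the other 27 did not pass, with a median log2 difference of 0.24 over the list against -0.01 over all genes tested. DNA replication and G1/S genes followed with 9 of 44 (20.5%) rising and a median of 0.15, and 43 of the 44 lay above 0. Among 25 genes of homologous recombination and DNA repair, 3 (12.0%) rose, against 4.28% of all genes tested. They were Polq, a polymerase of end joining, and Fancb and Fanci of the Fanconi anaemia pathway. Of this repair list, 1 rose without Rosa library 2, 10 or 14 or KO library 4, 7, 11 or 15, 5 rose without KO library 12 and 6 without Rosa library 6.

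The regulators of mitosis included Ccnf, the cyclin F subunit of a ubiquitin ligase, Ttk, the kinase that sets the spindle checkpoint, and Kif23, a kinesin of the central spindle. Genes of this phase are repressed early in the cell cycle through a promoter element, the cell cycle homology region, bound by the MuvB complexes. Its core TTTGAA, searched on both strands of the RefSeq promoter windows (250 bases before to 50 bases after the gene's start, mouse build GRCm38.p6), was found for 15 of the 21 mitosis genes that rose and have a window, and in 14.3% of the 9975 tested coding genes with a window. The windows of these 3 genes are shown because each holds the element, in capitals, 5′ to 3′ on the gene's strand. The Ccnf window, chr17:24251360-24251659 on the minus strand, holds it at 2 places, and those of Ttk, chr9:83834439-83834738 on the plus strand, and Kif23, chr9:61946750-61947049 on the minus strand, at 1 each, in Ttk in the reverse orientation. A match describes the sequence and does not show that a factor binds it.
Ccnf: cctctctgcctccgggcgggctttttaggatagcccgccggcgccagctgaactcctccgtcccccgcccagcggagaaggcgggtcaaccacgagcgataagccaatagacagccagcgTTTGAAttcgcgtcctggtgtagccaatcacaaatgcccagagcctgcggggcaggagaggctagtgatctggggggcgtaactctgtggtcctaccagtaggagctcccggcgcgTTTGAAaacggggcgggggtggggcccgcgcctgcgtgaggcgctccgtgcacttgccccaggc
Ttk: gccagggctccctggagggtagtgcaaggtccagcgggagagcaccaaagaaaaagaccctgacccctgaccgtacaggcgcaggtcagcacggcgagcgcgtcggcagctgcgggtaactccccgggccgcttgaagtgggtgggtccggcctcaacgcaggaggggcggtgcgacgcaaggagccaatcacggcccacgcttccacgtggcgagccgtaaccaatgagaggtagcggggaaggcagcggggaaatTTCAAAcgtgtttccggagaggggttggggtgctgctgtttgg
Kif23: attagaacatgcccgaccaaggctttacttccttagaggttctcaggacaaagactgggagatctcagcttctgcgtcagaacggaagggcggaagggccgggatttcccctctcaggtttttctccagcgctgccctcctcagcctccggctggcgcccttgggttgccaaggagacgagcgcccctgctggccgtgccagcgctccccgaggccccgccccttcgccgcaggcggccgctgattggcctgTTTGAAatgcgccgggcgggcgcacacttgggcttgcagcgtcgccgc

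Mki67, the marker of cycling cells, ranged from 404 to 503 CPM with a median of 427 CPM in KO libraries, against 341, 366 and 368 CPM in the Rosa libraries of T69A, T6-LOH and T12-LOH with PSC4 and 354 CPM in that of T6-LOH with PSC5, an order of Rosa libraries kept below. Every KO library was above every Rosa library (log2 difference 0.29, SE 0.05, adjusted p = 0.0104). Ccnf ranged from 28.03 to 55.1 CPM (median 45.2) in KO libraries, against 21.1, 35.9, 44.7 and 31.04 CPM in Rosa libraries. The T69A libraries were lowest in both groups and the groups overlapped, but each KO library was above its own Rosa library (log2 difference 0.37, SE 0.06, adjusted p = 0.00693). Ttk ranged from 20.01 to 43.3 CPM (median 37.8) in KO libraries, against 17.1, 32.1, 31.1 and 31.2 CPM in Rosa libraries (log2 difference 0.32, SE 0.06, adjusted p = 0.00974), again higher in 7 of 7 pairs with overlapping groups. Kif23 ranged from 169 to 439.5 CPM (median 202) in KO libraries, against 235, 166, 332 and 152 CPM in Rosa libraries (log2 difference 0.27, SE 0.06, adjusted p = 0.0156). T12-LOH had the highest levels with either PSC genotype, and the KO library was the higher one in 7 of 7 pairs. Cdc20, which activates the anaphase-promoting complex (log2 difference 0.32, SE 0.09, adjusted p = 0.0439), Kif11, the kinesin that separates the spindle poles (log2 difference 0.31, SE 0.07, adjusted p = 0.0266), and Birc5, the survivin of the chromosomal passenger complex (log2 difference 0.27, SE 0.06, adjusted p = 0.019), also rose.

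Among the replication genes, Prim1, the catalytic subunit of primase, ranged from 31.97 to 49.8 CPM (median 32.7) in KO libraries, against 22.8, 28.1, 39.03 and 24.6 CPM in Rosa libraries (log2 difference 0.36, SE 0.06, adjusted p = 0.00764). Its partner Pola1, the DNA polymerase alpha subunit, ranged from 40.02 to 64.9 CPM (median 47.4) in KO libraries, against 33.7, 37.9, 54.2 and 38.02 CPM in Rosa libraries (log2 difference 0.27, SE 0.05, adjusted p = 0.0084). Both were higher in 7 of 7 KO libraries than in their own Rosa library, and T12-LOH stood above the other lines in both groups. The nucleotide supply enzymes Rrm2 (log2 difference 0.33, SE 0.08, adjusted p = 0.0242), Rrm1 (log2 difference 0.23, SE 0.06, adjusted p = 0.0282) and Tyms (log2 difference 0.24, SE 0.06, adjusted p = 0.0344) rose as well, as did the cell cycle transcription factor E2f8 (log2 difference 0.35, SE 0.08, adjusted p = 0.0241) and Mcm6 of the replicative helicase (log2 difference 0.17, SE 0.05, adjusted p = 0.041). Rrm2, Rrm1, Tyms and Mcm6 were higher in 6 of 7 pairs. The trace of stellate RNA would give 0.17 CPM of Mki67 with KO PSCs and 0.57 CPM with Rosa PSCs. The count of replication genes that rose was 1 without Rosa library 14, 2 without Rosa library 2, KO library 4 or KO library 16, 3 without Rosa library 10, and 4 and 5 without KO library 11 or 15. It was 14 with KO library 12 left out. The count of mitosis genes that rose was 1 without Rosa library 14, 4 without Rosa library 2 or KO library 4, and 10, 11, 13 and 15 without KO library 16, 11, 15 or 7. It was 40 with KO library 12 left out. The list median was above 0 in each of the 7 KO libraries taken against its own Rosa library, from 0.03 in KO library 12 to 0.38 in KO library 15.

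**Figure D2:**
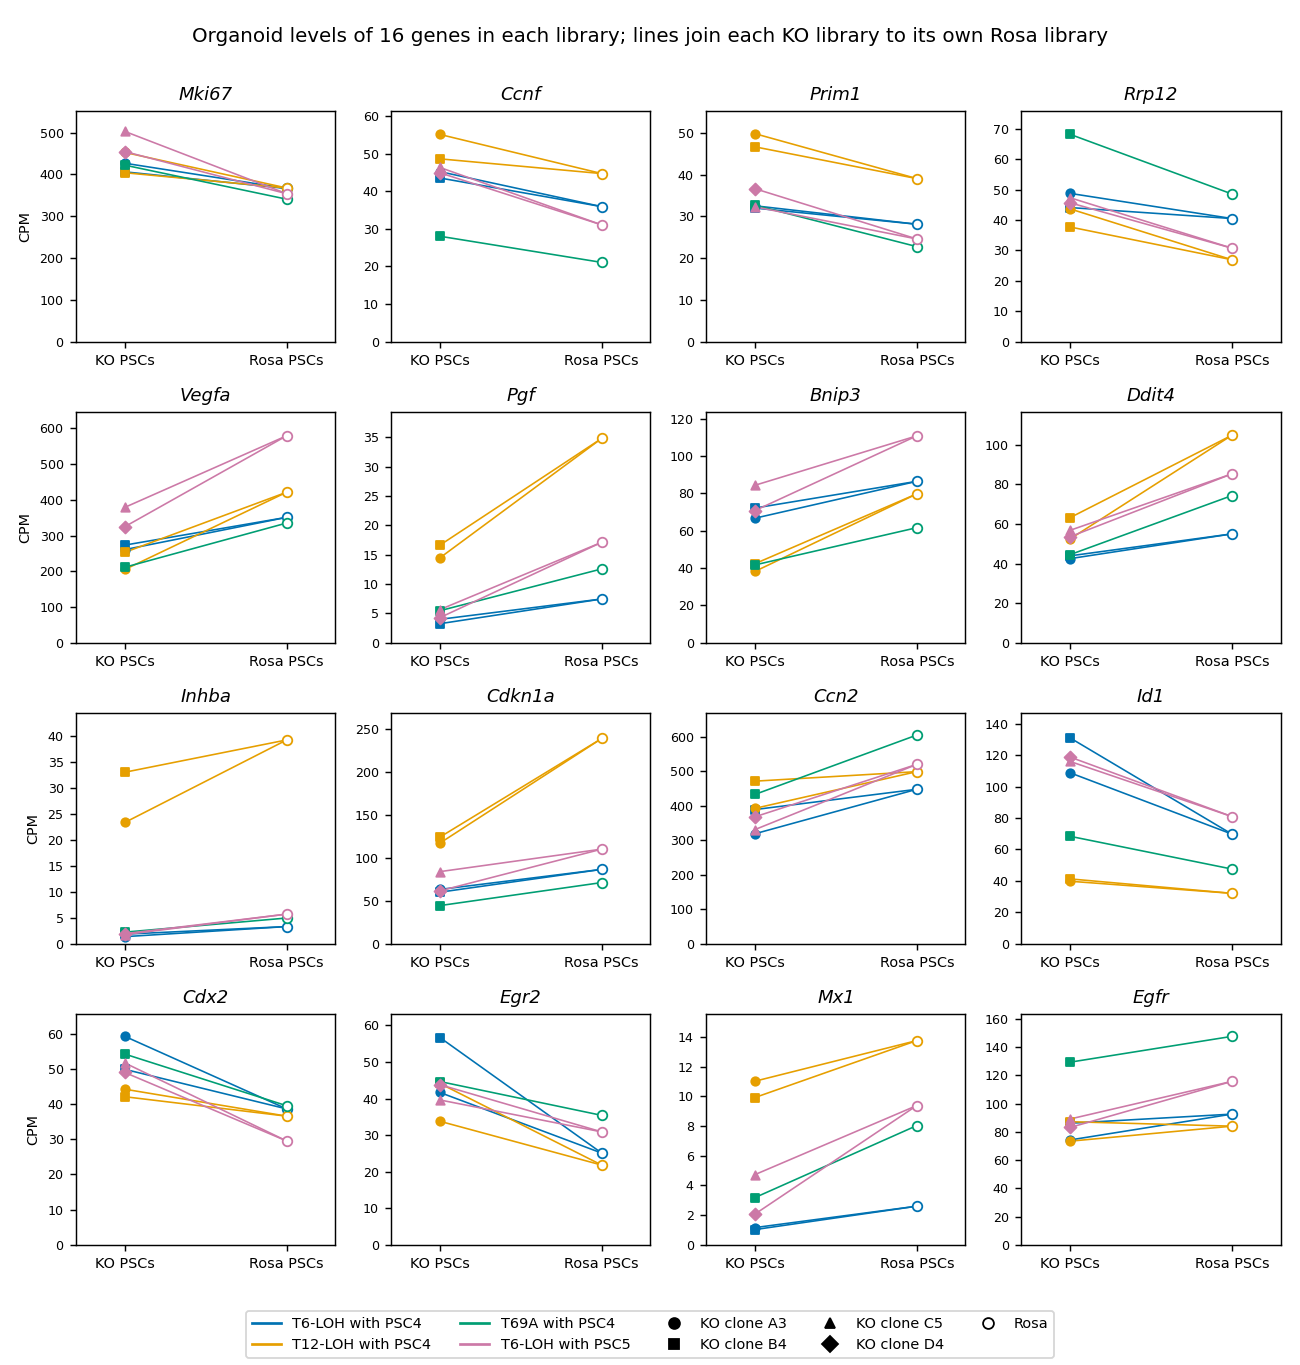
Organoid levels of 16 genes in CPM, with KO libraries on the left of each panel and Rosa libraries on the right; lines join each KO library to the Rosa library of its own co-culture, colours give the co-culture and markers the clone. The lines run the same way in all 7 pairs for Mki67, Vegfa and Id1, although libraries of different organoid lines sit at different heights.

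Genes for making ribosomes were also higher. Of 31 genes of MYC and ribosome biogenesis, 16 (51.6%) rose, against 4.28% of all genes tested. The other 15 did not pass, and all 31 had a log2 difference above 0 (median 0.25). Rrp12, which carries ribosomal subunits out of the nucleus, ranged from 37.7 to 68.2 CPM (median 45.7) in KO libraries, against 48.5, 40.5, 26.9 and 30.7 CPM in Rosa libraries (log2 difference 0.46, SE 0.07, adjusted p = 0.00473). Each KO library was above its own Rosa library, while the T69A Rosa library lay above several KO libraries of the other lines. Polr1a, the largest subunit of RNA polymerase I, ranged from 85.5 to 105 CPM (median 92.9) in KO libraries, against 83.8, 79.2, 80.3 and 74.2 CPM in Rosa libraries (log2 difference 0.26, SE 0.05, adjusted p = 0.013), and here every KO library was above every Rosa library. Bop1, a maturation factor of the large subunit (log2 difference 0.25, SE 0.06, adjusted p = 0.0253), was higher in 6 of 7 pairs. Nop56, a core protein of small nucleolar ribonucleoproteins, averaged 317 ± 53.3 CPM (SD, n = 7) with KO PSCs and 279 ± 66.5 CPM (SD, n = 4) with Rosa PSCs and did not pass (adjusted p = 0.125). The list had 2 genes that rose without Rosa library 14, 3 without Rosa library 10, 5 without Rosa library 2, 6 without KO library 4, 8, 9, 9 and 10 without KO library 16, 15, 7 or 11, and 26 without Rosa library 6. Its median was above 0 in 6 of the 7 KO libraries and -0.03 in KO library 8.

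Of 37 nuclear genes of the respiratory chain, 5 (13.5%) rose, against 4.28% of all genes tested, with a list median of 0.08. Ndufa4 (log2 difference 0.26, SE 0.06, adjusted p = 0.0167) is an accessory subunit of the chain, Ndufs1 (log2 difference 0.18, SE 0.04, adjusted p = 0.0254) the largest subunit of complex I, and Atp5b (log2 difference 0.17, SE 0.05, adjusted p = 0.0412) is the catalytic subunit of ATP synthase. The other 2 were Ndufa9 and Ndufa10 of complex I. None of the 37 passed without Rosa library 14, 1 passed without Rosa library 2, Rosa library 10, KO library 4 or KO library 16, and 14 passed without Rosa library 6. The 13 protein genes of mitochondrial DNA had 0 members past the threshold by edgeR's quasi-likelihood test, by DESeq2 or by limma, and 0 at an unadjusted p of 0.05. The mitochondrial share of counts averaged 3.15 ± 0.51% (SD, n = 7) with KO PSCs and 3.50 ± 1.17% (SD, n = 4) with Rosa PSCs, a difference within co-cultures of -0.139 percentage points (exact two-sided permutation test, p = 0.852).

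Genes of glycolysis and the response to low oxygen were lower in organoids with KO PSCs. Of 44 such genes, 14 (31.8%) fell and 1 (2.27%) rose, against 6.05% and 4.28% of all genes tested. The other 29 did not pass, and the list median was -0.21. The genes that fell included Bnip3, which targets mitochondria for removal, Ddit4, an inhibitor of the growth kinase mTORC1, and Slc16a3, the lactate exporter MCT4. Stc2, a secreted glycoprotein and the 1 gene of the list that rose (log2 difference 0.24, SE 0.06, adjusted p = 0.0257), is named after its value was seen.

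The hypoxia-inducible factors bind the core ACGTG. It was found on either strand of the promoter window for 9 of the 11 genes of the list that fell and have a window, and in 29.0% of the 9975 tested coding genes with a window. The windows of these 3 genes are shown with the core in capitals where it reads in the gene's direction or its opposite. The core is part of the MYC element CACGTG, so a match to one can be a match to the other. It was also found for 7 of the 12 ribosome biogenesis genes that rose and have a window, so it is not particular to the genes that fell. In Bnip3, chr7:138909457-138909756 on the minus strand of GRCm38.p6, the 2 matches are both strands of 1 CACGTG. Ddit4, chr10:59951721-59952020 on the minus strand, has 1 match and Slc16a3, chr11:120948817-120949116 on the plus strand, has 2. No factor was measured on these windows.
Bnip3: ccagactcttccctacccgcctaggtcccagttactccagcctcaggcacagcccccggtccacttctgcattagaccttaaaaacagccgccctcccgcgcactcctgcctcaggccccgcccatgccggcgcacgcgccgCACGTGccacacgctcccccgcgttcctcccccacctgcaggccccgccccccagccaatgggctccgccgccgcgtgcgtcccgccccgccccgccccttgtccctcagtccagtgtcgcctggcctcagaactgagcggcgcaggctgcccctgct
Ddit4: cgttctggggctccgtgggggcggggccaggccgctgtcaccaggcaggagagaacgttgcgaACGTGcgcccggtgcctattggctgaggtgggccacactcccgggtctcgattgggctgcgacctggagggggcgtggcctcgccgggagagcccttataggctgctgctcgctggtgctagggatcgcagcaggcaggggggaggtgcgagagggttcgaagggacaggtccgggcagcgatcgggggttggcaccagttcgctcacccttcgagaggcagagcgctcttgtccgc
Slc16a3: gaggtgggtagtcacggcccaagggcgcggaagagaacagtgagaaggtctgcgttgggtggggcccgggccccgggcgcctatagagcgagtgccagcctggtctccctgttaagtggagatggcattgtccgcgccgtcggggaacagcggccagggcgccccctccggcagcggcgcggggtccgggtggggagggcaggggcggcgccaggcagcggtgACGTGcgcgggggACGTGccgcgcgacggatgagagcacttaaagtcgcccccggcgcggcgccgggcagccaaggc

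Bnip3 ranged from 38.2 to 84.4 CPM (median 66.8) in KO libraries, against 61.7, 86.5, 79.8 and 111 CPM in Rosa libraries (log2 difference -0.60, SE 0.10, adjusted p = 0.0086). Each KO library was below its own Rosa library, and the Rosa libraries of T69A and T12-LOH lay within the range of the KO libraries. Ddit4 ranged from 42.5 to 63.2 CPM (median 52.4) in KO libraries, against 74.4, 55.02, 105 and 85.4 CPM in Rosa libraries (log2 difference -0.64, SE 0.08, adjusted p = 0.00243). The Rosa library of T6-LOH with PSC4 was the lowest of its group and lay within the KO range. Slc16a3 ranged from 116 to 238 CPM (median 182) in KO libraries, against 239.5, 237, 193 and 248 CPM in Rosa libraries (log2 difference -0.39, SE 0.08, adjusted p = 0.0145), lower in 7 of 7 pairs with overlapping groups. The stellate trace would give 0.30 CPM of Bnip3 and less of the other 2 in a Rosa library. The list median was below 0 in all 7 KO libraries taken against their own Rosa library, from -0.39 in KO library 11 to -0.02 in KO library 15. The number that fell was 3 without Rosa library 14, 6 without KO library 16, 7 without Rosa library 2, Rosa library 10 or KO library 4, and 8 without KO library 7 or 15. It was 9 with KO library 11 left out.

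Several growth factors that tumour cells send to vessels and stroma fell in the same organoids. Of 36 secreted factors measured, 6 (16.7%) fell and 4 (11.1%) rose, against 6.05% and 4.28% of all genes tested. Vegfa, the main growth factor of blood vessels, ranged from 205 to 379 CPM (median 261) in KO libraries, against 335, 351, 422 and 579.7 CPM in Rosa libraries (log2 difference -0.67, SE 0.08, adjusted p = 0.00344). The KO library was the lower one in 7 of 7 pairs, and only KO library 15 lay above a Rosa library of another co-culture. Pgf, the placental growth factor that binds the same receptor family, ranged from 3.24 to 16.6 CPM (median 5.46) in KO libraries, against 12.6, 7.46, 34.9 and 17.1 CPM in Rosa libraries (log2 difference -1.32, SE 0.12, adjusted p = 0.00154). T12-LOH made the most with either PSC genotype, and the KO library was the lower one in all 7 pairs. Pdgfa, a mitogen of stellate cells (log2 difference -0.42, SE 0.11, adjusted p = 0.0386), Sema7a, a membrane-anchored semaphorin (log2 difference -0.82, SE 0.13, adjusted p = 0.00768), and Fgf18 (log2 difference -1.09, SE 0.25, adjusted p = 0.0223) also fell in 7 of 7 pairs. Ccn2, the sixth, is described with the TGF-beta targets. Igfbp5, a binding protein of insulin-like growth factors, ranged from 0.562 to 10.9 CPM (median 8.05) in KO libraries, against 1.68, 4.07, 0.142 and 2.01 CPM in Rosa libraries (log2 difference 1.69, SE 0.25, adjusted p = 0.00498), and was higher in 7 of 7 pairs at low levels. Ccn3 (log2 difference 0.73, SE 0.16, adjusted p = 0.0171) and Fgf13 (log2 difference 0.58, SE 0.13, adjusted p = 0.0222) were also low in level, and Sema4a was the fourth that rose (log2 difference 0.22, SE 0.05, adjusted p = 0.0239). Without Rosa library 2 or KO library 4, 3 of the list fell, and without Rosa library 14, 4 fell and 1 rose.

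Targets of TGF-beta and SMAD signalling fell, and a pair of BMP targets rose. TGF-beta acts on pancreatic epithelium as a brake on growth and a driver of matrix and invasion genes, while the Id genes are textbook targets of the BMP branch and encode inhibitors of differentiation factors. Of 36 genes of the list, 13 (36.1%) fell and 2 (5.56%) rose, against 6.05% and 4.28% of all genes tested. The other 21 did not pass, and the list median was -0.29. Cdkn1a, the p21 inhibitor of cyclin-dependent kinases, ranged from 44.5 to 124 CPM (median 63.4) in KO libraries, against 71.4, 86.8, 239.5 and 110.4 CPM in Rosa libraries (log2 difference -0.70, SE 0.09, adjusted p = 0.00473), lower in 7 of 7 pairs and highest in T12-LOH. Ccn2, a matricellular growth factor, ranged from 319 to 471 CPM (median 389) in KO libraries, against 605, 448, 499 and 519.9 CPM in Rosa libraries (log2 difference -0.40, SE 0.08, adjusted p = 0.0156). Only KO library 12 lay above a Rosa library.

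The other genes of the list that fell covered the ligand, its activation and its feedback. Tgfb1, the ligand (log2 difference -0.32, SE 0.08, adjusted p = 0.0333), Tgfbr2, its receptor (log2 difference -0.15, SE 0.04, adjusted p = 0.0438), and the integrin genes Itgav (log2 difference -0.35, SE 0.09, adjusted p = 0.0342) and Itgb6 (log2 difference -0.44, SE 0.07, adjusted p = 0.00473), whose proteins pair to release the ligand from its latent form, fell in 7 of 7 pairs. Inhba, which encodes the activin A subunit (log2 difference -1.01, SE 0.18, adjusted p = 0.0123), and Skil, a SMAD corepressor induced by the pathway (log2 difference -0.44, SE 0.10, adjusted p = 0.0336), did too. Id1 ranged from 39.8 to 131 CPM (median 109) in KO libraries, against 47.5, 69.8, 32.1 and 80.9 CPM in Rosa libraries (log2 difference 0.55, SE 0.07, adjusted p = 0.00256). Each KO library was above its own Rosa library, and T12-LOH was lowest in both groups. Id2 ranged from 60.2 to 182 CPM (median 116) in KO libraries, against 102, 67.8, 49.5 and 96.4 CPM in Rosa libraries (log2 difference 0.56, SE 0.10, adjusted p = 0.0115), again higher in 7 of 7 pairs. The number of list members that fell was 3 without Rosa library 14 or Rosa library 2, 4 without KO library 4, 7 without KO library 7, and 8 without KO library 11 or 16. The list median in single KO libraries ran from -0.43 in KO library 16 to 0.00 in KO library 8.

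YAP and TEAD targets, which report on cell shape and tension, gave a mixed picture, with 6 of 33 (18.2%) lower, 1 (3.03%) higher and a median of -0.09. Of all genes tested, 6.05% fell and 4.28% rose. Ccn1, a target of this pathway like Ccn2, ranged from 219 to 321 CPM (median 250.2) in KO libraries, against 256, 199, 253 and 246 CPM in Rosa libraries and did not pass (log2 difference 0.15, SE 0.12, adjusted p = 0.446). Nt5e, the ectoenzyme that makes adenosine (log2 difference -1.64, SE 0.42, adjusted p = 0.0472), Gadd45a, a growth arrest gene (log2 difference -0.80, SE 0.12, adjusted p = 0.00644), and Tead1, a partner of YAP (log2 difference -0.45, SE 0.12, adjusted p = 0.0493), fell. Birc5, the member that rose, is also in the mitosis list. Without Rosa library 2, Rosa library 14 or KO library 4, 1 of the list fell, and without KO library 7 or 16, 3 fell.

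Of 35 extracellular proteases and inhibitors, 6 fell and the median was -0.25: they included Mmp14, the membrane collagenase (log2 difference -0.25, SE 0.05, adjusted p = 0.0158), the cathepsins Ctsl (log2 difference -0.43, SE 0.09, adjusted p = 0.024) and Ctsd, Mmp10 (log2 difference -1.97, SE 0.44, adjusted p = 0.0257), which was below 8 CPM in all libraries, and Plod3, a collagen lysyl hydroxylase. Without Rosa library 14, 1 of them fell, and without Rosa library 2 or KO library 4, 2 fell. Among 25 integrins, laminins and hemidesmosome genes, Itga1, a collagen receptor subunit (log2 difference 0.43, SE 0.09, adjusted p = 0.0192), and the basement membrane genes Nid1 (log2 difference 0.39, SE 0.10, adjusted p = 0.0356) and Lamc1 (log2 difference 0.16, SE 0.04, adjusted p = 0.0367) rose, and Itgb6 and Itgav fell. With all libraries 12.0% of this list rose and 8.0% fell, against 4.28% and 6.05% of all genes tested. Without Rosa library 14, 0 of this list rose and 1 fell, and without Rosa library 2, KO library 4 or KO library 16, 1 rose and 1 fell. Of 28 genes of the actin cytoskeleton, Mical2, an actin oxidase (log2 difference 0.23, SE 0.06, adjusted p = 0.0274), rose and 4 fell, among them Actn1 (log2 difference -0.21, SE 0.05, adjusted p = 0.0303), Pdlim7 (log2 difference -0.53, SE 0.11, adjusted p = 0.0264) and Tpm4 (log2 difference -0.19, SE 0.05, adjusted p = 0.0386). Of the actin list 3.57% rose and 14.3% fell with all libraries, and no gene of it passed without Rosa library 2, Rosa library 14 or KO library 4.

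**Figure D3:**
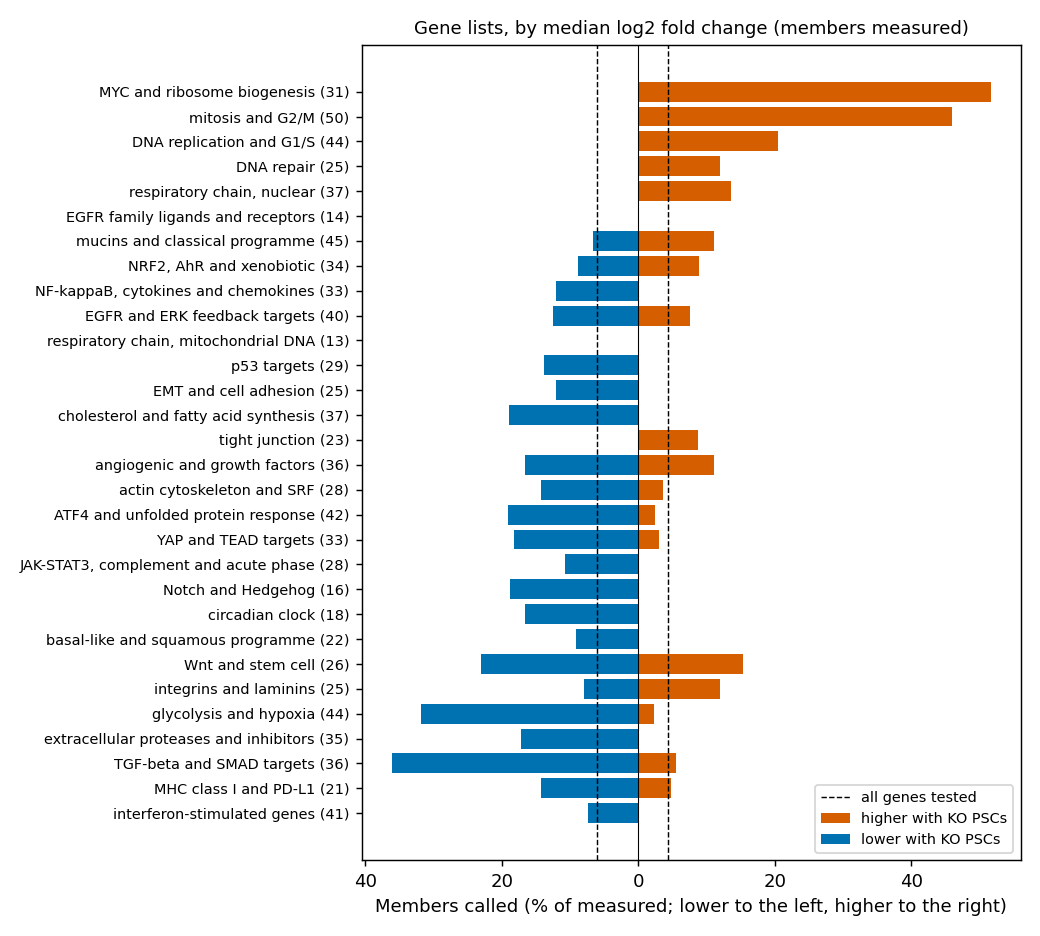
Share of the measured members of each gene list other than the cell type markers, in percent, that rose (orange, to the right) or fell (blue, to the left) in organoids with KO PSCs; the number measured is in brackets and the dashed lines mark 4.28% higher and 6.05% lower among all genes tested. Among the lists shown, those of ribosome biogenesis and mitosis reach furthest to the right and the TGF-beta list furthest to the left.

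The organoids' own Egfr and its ligands showed no member past the threshold in edgeR's test with all libraries. Egfr in the organoid fraction ranged from 73.4 to 129 CPM (median 86.1) in KO libraries, against 148, 92.6, 84.1 and 116 CPM in Rosa libraries, with a log2 difference of -0.23 (SE 0.07, adjusted p = 0.0523). KO libraries were lower in 6 of 7 pairs and the groups overlapped. Egfr lay close to the threshold: it passed, always as lower, in 10 of 26 alternative settings, among them DESeq2, limma with the co-culture as block, and leaving out Rosa library 10 or KO library 8 or 12, and its log2 difference ran from -0.32 to -0.15 over the 26. On the TPM scale, which is per transcript length, the ligand Hbegf was the highest of the family at 224 ± 33.3 TPM with KO PSCs and 195 ± 19.3 TPM with Rosa PSCs (SD, n = 7 and n = 4 throughout). Areg followed at 204 ± 67.5 TPM with KO PSCs and 172 ± 53.1 TPM with Rosa PSCs, and the means of these 2 ligands lay closer together than the SD over libraries, which includes the differences between organoid lines; no test was made between them. The sheddase Adam10 had 83.7 TPM with KO PSCs and 90.9 TPM with Rosa PSCs, and the receptors Erbb3 and Erbb2 had 59.4 and 42.5 TPM with KO PSCs and 59.3 and 41.6 TPM with Rosa PSCs. The ligands Btc, Tgfa and Ereg had 53.8, 36.9 and 36.2 TPM with KO PSCs and 57.0, 37.6 and 29.2 TPM with Rosa PSCs, and Egfr itself 20.7 ± 4.95 TPM with KO PSCs and 24.8 ± 5.30 TPM with Rosa PSCs. Of the 14 family genes tested, 0 passed an adjusted p of 0.05 by edgeR's quasi-likelihood test, 5 passed an unadjusted p of 0.05, DESeq2 called 2 and limma called 1. Over all 13939 genes tested, 4054 passed an unadjusted p of 0.05 by edgeR's test and DESeq2 called 1896.

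Targets and feedback genes of the ERK pathway, which acts below EGFR and other receptors, moved in both directions, and their median was -0.01. Of 40 genes, 3 (7.5%) rose and 5 (12.5%) fell, against 4.28% and 6.05% of all genes tested. Egr2, an immediate-early transcription factor, ranged from 33.8 to 56.7 CPM (median 43.8) in KO libraries, against 35.4, 25.1, 21.8 and 30.9 CPM in Rosa libraries (log2 difference 0.66, SE 0.14, adjusted p = 0.0242). It was higher in 7 of 7 pairs, and only KO library 11 lay below a Rosa library. Egr1 (log2 difference 0.23, SE 0.07, adjusted p = 0.0483) and Ier2 (log2 difference 0.20, SE 0.06, adjusted p = 0.0444), named after their values were seen, also rose. Dusp10, a phosphatase of the stress kinases p38 and JNK, ranged from 25.2 to 57.8 CPM (median 44.3) in KO libraries, against 49.6, 60.1, 40.8 and 83.1 CPM in Rosa libraries (log2 difference -0.54, SE 0.08, adjusted p = 0.00473), lower in 7 of 7 pairs. The ERK phosphatase Dusp7 (log2 difference -0.40, SE 0.10, adjusted p = 0.0325), Jun (log2 difference -0.30, SE 0.07, adjusted p = 0.0314), Ier3 (log2 difference -0.26, SE 0.07, adjusted p = 0.0405) and Dusp1, named after its value was seen (log2 difference -0.36, SE 0.09, adjusted p = 0.0428), fell. Without Rosa library 2 or 14 or KO library 4, 7, 15 or 16, 1 gene of the list fell, and without Rosa library 10 or KO library 11 or 12, 2 fell. Without Rosa library 6 or 14 or KO library 16, 0 of the list rose, and without Rosa library 10 none of Egr2, Egr1 and Ier2 passed.

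Interferon-stimulated genes had the lowest median of the lists other than the cell type markers, -0.81, but rest on low counts, and 3 of 41 (7.32%) fell, a share near the 6.05% of all genes tested. These genes encode antiviral proteins and T cell chemokines. Cxcl10, a T cell chemokine, ranged from 0.289 to 10.9 CPM (median 0.969) in KO libraries, against 1.19, 1.05, 23.03 and 3.92 CPM in Rosa libraries (log2 difference -1.30, SE 0.23, adjusted p = 0.0105). The KO library was the lower one in 7 of 7 pairs, and T12-LOH was far above the other lines. Mx1, a dynamin-like antiviral GTPase, ranged from 1.02 to 11.03 CPM (median 3.18) in KO libraries, against 8.04, 2.60, 13.8 and 9.39 CPM in Rosa libraries (log2 difference -1.08, SE 0.23, adjusted p = 0.0227), again lower in 7 of 7 pairs. Ifit3, an RNA-sensing antiviral protein, ranged from 0.102 to 3.68 CPM (median 1.03) in KO libraries, against 4.55, 0.907, 3.48 and 18.2 CPM in Rosa libraries and did not pass (log2 difference -2.22, SE 0.69, adjusted p = 0.0868). The third gene, Ifitm3 (log2 difference -1.66, SE 0.45, adjusted p = 0.0437), averaged 0.761 CPM with KO PSCs and 2.86 CPM with Rosa PSCs, and the stellate trace would give 0.18 CPM with KO PSCs and 0.70 CPM with Rosa PSCs. The stellate part in it was not tested. No gene of the list fell without Rosa library 14, 1 fell without Rosa library 2, Rosa library 6 or KO library 4, and 5 fell without KO library 16.

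The interferon median differed between cultures, and the PSC fraction of a culture was often on the same side as its organoids. The KO culture of T6-LOH with clone D4 had medians of -2.80 in the organoids and -1.85 in the PSCs, and that of T12-LOH with clone B4 had 0.45 in the organoids and 0.88 in the PSCs. Of the 7 KO cultures, 1 had the fractions on opposite sides of 0. The TGF-beta targets were below 0 in the organoids of 6 of 7 KO cultures and above 0 in the PSCs of 6 of 7, by as little as 0.04 with T6-LOH and clone A3. Mitosis genes were above 0 in the organoids of all 7 and above 0 in the PSCs of 2. Hypoxia genes were below 0 in the organoids of all 7 and in the PSCs of 6. The PSC levels here were scaled by library totals only and the organoid levels by TMM, so the fractions are not on the same scale. The side of a median near 0 can depend on this, which was not tested.

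**Figure D4:**
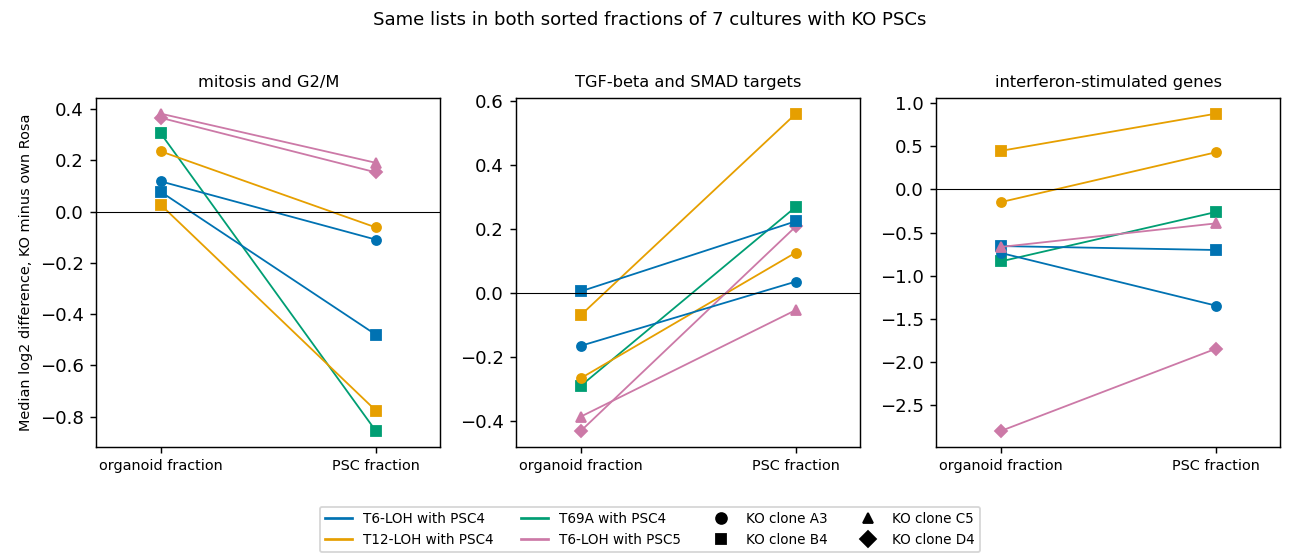
Median log2 difference of the mitosis, TGF-beta and interferon lists in the organoid fraction (left) and the PSC fraction (right) of the 7 KO cultures, each taken against its own Rosa culture; lines join the fractions of 1 culture. The interferon panel holds the widest spread, from -2.80 to 0.45 in organoids. Organoid levels were scaled by TMM and PSC levels by library totals only.

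MHC class I genes, whose classical members present antigen to T cells, were part of a list of 21. In it 3 (14.3%) fell, 1 (4.76%) rose and the median was -0.37. Of all genes tested, 6.05% fell and 4.28% rose. H2-K1 ranged from 332 to 485 CPM (median 360.3) in KO libraries, against 377, 439, 399.6 and 614 CPM in Rosa libraries (log2 difference -0.29, SE 0.07, adjusted p = 0.0227), lower in 7 of 7 pairs. H2-Q4 (log2 difference -0.40, SE 0.11, adjusted p = 0.0486) and H2-Q6 (log2 difference -1.01, SE 0.25, adjusted p = 0.0288) also fell, and reads of these near-identical genes may be divided among them. Calr, the calreticulin chaperone of the peptide loading complex, rose (log2 difference 0.17, SE 0.05, adjusted p = 0.0476). None of the 3 passed without Rosa library 14, and 1 did without Rosa library 2, Rosa library 10 or KO library 4, 7 or 11. Of 33 genes of NF-kappaB, cytokines and chemokines, 4 (12.1%) fell: Lif, a cytokine of the IL-6 family (log2 difference -0.55, SE 0.12, adjusted p = 0.0243), Relb (log2 difference -0.42, SE 0.09, adjusted p = 0.0144), Birc3 (log2 difference -0.34, SE 0.07, adjusted p = 0.0179) and Il23a (log2 difference -0.77, SE 0.22, adjusted p = 0.0483). Of 28 genes of STAT3 and the acute phase, 3 (10.7%) fell. Pim1, a kinase induced by STAT proteins, ranged from 57.6 to 82.5 CPM (median 64.2) in KO libraries, against 94.3, 79.9, 117 and 91.6 CPM in Rosa libraries (log2 difference -0.55, SE 0.08, adjusted p = 0.00394), and only KO library 12 lay above a Rosa library. Cish, a feedback inhibitor of cytokine receptors (log2 difference -0.54, SE 0.09, adjusted p = 0.00706), fell in 7 of 7 pairs. Saa3, an acute-phase protein, averaged 0.387 CPM with KO PSCs and 3.85 CPM with Rosa PSCs, while the stellate trace alone would give 1.4 CPM with KO PSCs and 5.4 CPM with Rosa PSCs. Of the NF-kappaB list, 0 fell without Rosa library 2, 1 without Rosa library 14 or KO library 4, and 2 without Rosa library 10 or KO library 11, and of the STAT3 list 1 fell without Rosa library 14 and 5 without Rosa library 6.

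Identity genes of the epithelium moved little as a group. Among 45 mucins, trefoil factors and genes of the classical tumour programme, 5 (11.1%) rose and 3 (6.67%) fell, with a median of 0.05. Of all genes tested, 4.28% rose and 6.05% fell. Cdx2, an intestinal transcription factor, ranged from 42.1 to 59.3 CPM (median 49.9) in KO libraries, against 39.5, 38.6, 36.6 and 29.5 CPM in Rosa libraries (log2 difference 0.49, SE 0.08, adjusted p = 0.00575). Every KO library was above every Rosa library. Hnf4a, a transcription factor of gut and liver epithelium (log2 difference 0.28, SE 0.05, adjusted p = 0.00783), rose in 7 of 7 pairs, as did Tm4sf5 (log2 difference 0.37, SE 0.10, adjusted p = 0.0357) and Tspan8 (log2 difference 0.18, SE 0.05, adjusted p = 0.0453), and Pdx1, the pancreatic and duodenal factor, was higher in 6 of 7 (log2 difference 0.21, SE 0.06, adjusted p = 0.0436); the last 3 are named after their values were seen. Muc4, a membrane mucin, ranged from 115 to 236 CPM (median 185) in KO libraries, against 219.6, 254, 138 and 389 CPM in Rosa libraries (log2 difference -0.46, SE 0.10, adjusted p = 0.0223), lower in 7 of 7 pairs. Gkn1, a gastric mucosal protein (log2 difference -0.57, SE 0.13, adjusted p = 0.0227), and Foxa3 (log2 difference -0.38, SE 0.10, adjusted p = 0.0345) also fell. Of 22 genes of the basal-like and squamous programme, Tns4 (log2 difference -0.44, SE 0.07, adjusted p = 0.00509) and Fam83a (log2 difference -0.73, SE 0.21, adjusted p = 0.0483) fell, which is 9.09% of the list, with a list median of -0.17. With any 1 of the 11 libraries left out Tns4 still passed and Fam83a did not. Dsg3, a desmosomal cadherin of squamous epithelium, ranged from 1.97 to 8.48 CPM (median 6.08) in KO libraries, against 12.5, 13.4, 3.83 and 14.6 CPM in Rosa libraries (log2 difference -1.16, SE 0.16, adjusted p = 0.00344), the lower library of each pair being the KO one. Of the classical programme, 2 rose without Rosa library 2 or 14 or KO library 4, 8, 11 or 16, and 1 fell without Rosa library 10 or 14.

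In the list of Wnt and stem cell genes, 4 of 26 (15.4%) rose and 6 (23.1%) fell, against 4.28% and 6.05% of all genes tested. Wnt7a, a secreted ligand, ranged from 20.7 to 51.3 CPM (median 29.9) in KO libraries, against 58.5, 32.2, 61.6 and 46.2 CPM in Rosa libraries (log2 difference -0.50, SE 0.07, adjusted p = 0.0037). In each of the 7 pairs the KO library was the lower one, with overlapping groups. The hyaluronan receptor Cd44 (log2 difference -0.32, SE 0.07, adjusted p = 0.0167), the R-spondin receptor Lgr6 (log2 difference -0.95, SE 0.21, adjusted p = 0.03), the ephrin receptors Ephb3 (log2 difference -0.28, SE 0.07, adjusted p = 0.0298) and Ephb2 (log2 difference -0.21, SE 0.06, adjusted p = 0.0451), and Wnt7b fell. Lgr4, another R-spondin receptor (log2 difference 0.28, SE 0.04, adjusted p = 0.00366), Wnt4 (log2 difference 0.48, SE 0.10, adjusted p = 0.0151), the Wnt receptor Fzd5 (log2 difference 0.18, SE 0.04, adjusted p = 0.0282) and the retinaldehyde dehydrogenase Aldh1a1 (log2 difference 0.38, SE 0.10, adjusted p = 0.031) rose. Of 16 Notch and Hedgehog genes, the receptors Notch3 (log2 difference -0.39, SE 0.09, adjusted p = 0.0242) and Notch4 (log2 difference -1.45, SE 0.33, adjusted p = 0.0223) and the ligand Jag1 (log2 difference -0.29, SE 0.06, adjusted p = 0.019) fell. Among 23 tight junction genes, Ocln, the occludin of the junction strand (log2 difference 0.18, SE 0.05, adjusted p = 0.0437), and Cldn8 (log2 difference 0.98, SE 0.17, adjusted p = 0.0103) rose, which is 8.7% of the list. Cldn8 was below 2 CPM in T69A and T12-LOH and reached 55.3 CPM in T6-LOH. Without Rosa library 14, 2 of the Wnt list fell and 1 rose, and without Rosa library 2 or KO library 4, 1 fell and 2 rose. Without KO library 16, 2 fell, and without KO library 11 or 15, 3 fell. None of the 3 Notch genes passed without Rosa library 2, Rosa library 14 or KO library 4. Neither tight junction gene passed without Rosa library 14, and Ocln passed only without Rosa library 10 or KO library 11 when single libraries were left out.

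In the metabolic and stress lists most members did not pass. Of 37 genes of cholesterol and fatty acid synthesis, 7 (18.9%) fell, against 6.05% of all genes tested, although the list median was -0.05. Acss2, which makes acetyl-CoA from acetate, ranged from 23.6 to 61.2 CPM (median 51.9) in KO libraries, against 78.2, 69.4, 34.9 and 70.9 CPM in Rosa libraries (log2 difference -0.44, SE 0.05, adjusted p = 0.00155). The KO library was lower in all 7 pairs, with T12-LOH lowest in both groups. Pmvk and Sc5d of sterol synthesis (log2 difference -0.28, SE 0.05, adjusted p = 0.00783, and log2 difference -0.23, SE 0.05, adjusted p = 0.0207), the sterol reductase Tm7sf2 (log2 difference -0.34, SE 0.08, adjusted p = 0.0244) and the desaturase Scd1 (log2 difference -0.26, SE 0.06, adjusted p = 0.0253) fell, as did Scd2 and Fdps. Of 42 genes of ATF4 and the unfolded protein response, 8 (19.0%) fell and 1 (2.38%) rose, against 6.05% and 4.28% of all genes tested. The median of this list was -0.07. Trib3, a pseudokinase induced by amino acid stress, ranged from 15.2 to 25.6 CPM (median 21.5) in KO libraries, against 21.3, 28.3, 40.6 and 28.4 CPM in Rosa libraries (log2 difference -0.54, SE 0.10, adjusted p = 0.0107), lower in 7 of 7 pairs. Chac1, which degrades glutathione (log2 difference -0.55, SE 0.14, adjusted p = 0.0385), the arginine transporter Slc7a3 (log2 difference -0.73, SE 0.15, adjusted p = 0.016), the lipoprotein receptor Vldlr (log2 difference -0.32, SE 0.07, adjusted p = 0.0227), Psph of serine synthesis (log2 difference -0.27, SE 0.07, adjusted p = 0.0375), Dnajb9 and Gars fell beside Ddit4. Of the sterol and fatty acid list, 2 genes fell without Rosa library 2, Rosa library 14 or KO library 4, 3 without Rosa library 6 and 4 without KO library 16. Of the ATF4 list, 2 fell without Rosa library 14, 3 without Rosa library 10 or KO library 16, 4 without KO library 11 or 12, and 5 without Rosa library 2 or KO library 4.

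Of 29 p53 targets, 4 (13.8%) fell: Cdkn1a and Gadd45a, which the lists above share, Pmaip1, the apoptosis inducer Noxa (log2 difference -0.36, SE 0.08, adjusted p = 0.0272), and Phlda3, a repressor of AKT (log2 difference -0.32, SE 0.08, adjusted p = 0.0253). Among 18 circadian clock genes, Bhlhe41 (log2 difference -0.64, SE 0.12, adjusted p = 0.0105), Per3 (log2 difference -0.42, SE 0.09, adjusted p = 0.0132) and Bhlhe40 (log2 difference -0.38, SE 0.10, adjusted p = 0.0444) fell. In a list of 34 NRF2, aryl hydrocarbon receptor and xenobiotic genes, 3 (8.82%) rose and 3 (8.82%) fell. Of all genes tested, 4.28% rose and 6.05% fell. Aldh3a1, an aldehyde dehydrogenase, ranged from 7.28 to 33.6 CPM (median 12.4) in KO libraries, against 12.7, 10.3, 4.68 and 3.99 CPM in Rosa libraries (log2 difference 1.04, SE 0.14, adjusted p = 0.00404). It was higher in 7 of 7 pairs. The glutathione transferases Gsta1 (log2 difference 0.90, SE 0.21, adjusted p = 0.0452) and Gsta4 (log2 difference 0.46, SE 0.12, adjusted p = 0.0439) rose, while Hmox1, the heme oxygenase (log2 difference -0.47, SE 0.10, adjusted p = 0.0225), Cyp1b1 (log2 difference -0.70, SE 0.12, adjusted p = 0.00654) and Srxn1 (log2 difference -0.23, SE 0.06, adjusted p = 0.0429) fell. Without Rosa library 2, Rosa library 14 or KO library 4, 2 of the p53 targets and 1 of the clock genes fell, and 1 gene of the xenobiotic list rose and 1 fell. Without Rosa library 10, 2 of the p53 targets fell. Gsta1 and Gsta4 also did not pass without Rosa library 10 or KO library 7, 8 or 16.

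**Figure D5:**
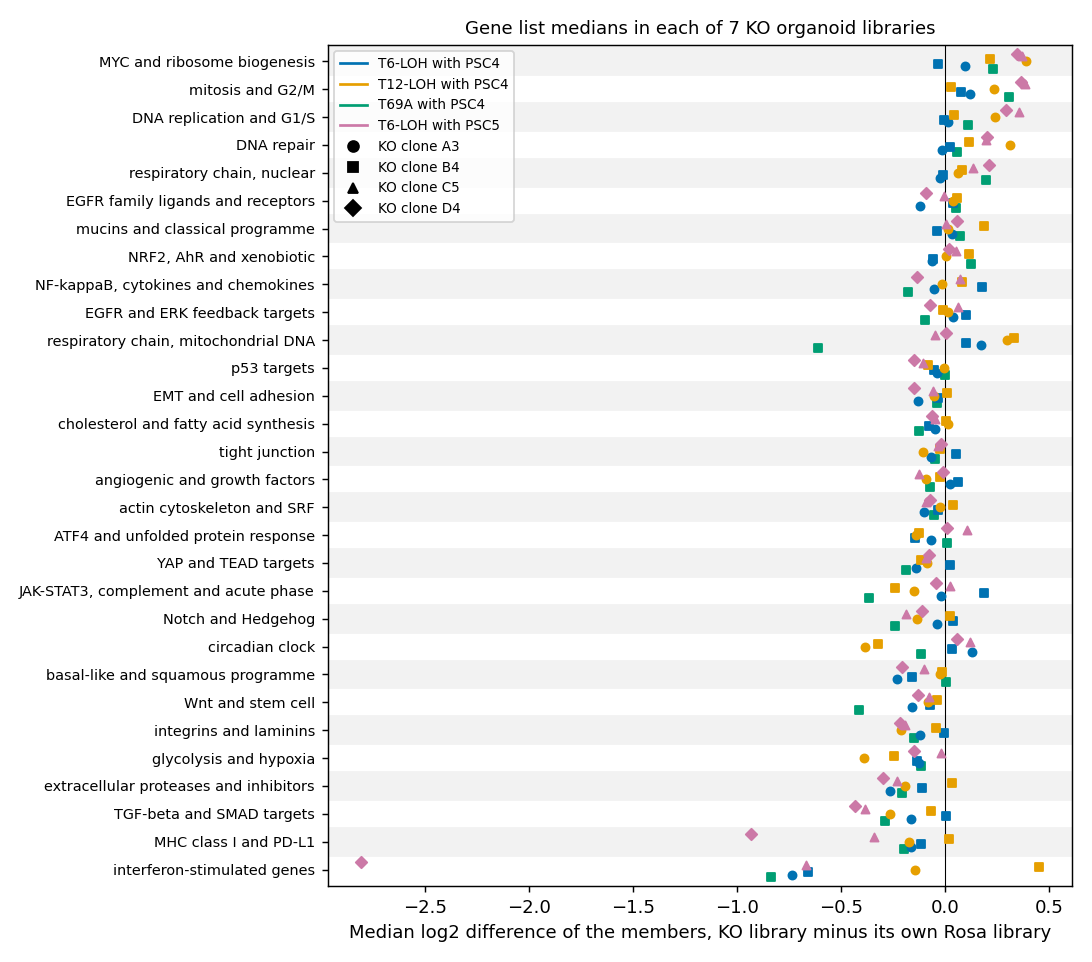
Median log2 difference of the members of each gene list in each of the 7 KO libraries, taken against the Rosa library of its own co-culture; colours give the co-culture and markers the clone. Mitosis medians lie above 0 in all 7 and hypoxia medians below 0 in all 7, while interferon medians spread from -2.80 to 0.45.

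The genes with the smallest adjusted p included some outside these lists. Neurl1b, a ubiquitin ligase of Notch ligands, ranged from 40.4 to 67.5 CPM (median 56.1) in KO libraries, against 27.7, 35.8, 29.98 and 35.95 CPM in Rosa libraries (log2 difference 0.68, SE 0.07, adjusted p = 0.00155), with every KO library above every Rosa library. Ces2g, a carboxylesterase (log2 difference 0.72, SE 0.08, adjusted p = 0.00157), Slc26a2, a sulphate transporter (log2 difference 0.43, SE 0.05, adjusted p = 0.00157), and Teddm3 (log2 difference 0.73, SE 0.09, adjusted p = 0.00215) rose in 7 of 7 pairs. Zfp697 ranged from 16.9 to 34.7 CPM (median 21.4) in KO libraries, against 36.05, 25.4, 50 and 35.3 CPM in Rosa libraries (log2 difference -0.61, SE 0.06, adjusted p = 0.00154). Atxn1, a transcriptional corepressor, ranged from 11.97 to 24.2 CPM (median 20.5) in KO libraries, against 29.4, 31.4, 22.5 and 38.1 CPM in Rosa libraries (log2 difference -0.71, SE 0.07, adjusted p = 0.00155). Both were lower in 7 of 7 pairs, as was Gsap (log2 difference -0.60, SE 0.07, adjusted p = 0.00157). Among the largest changes, Adamts15, a secreted metalloprotease, ranged from 3.90 to 35.4 CPM (median 18.4) in KO libraries, against 5.39, 14.04, 2.20 and 11.5 CPM in Rosa libraries (log2 difference 1.15, SE 0.13, adjusted p = 0.00243). Clca1, a goblet cell secreted protein (log2 difference 0.91, SE 0.20, adjusted p = 0.0375), Upk1b, a uroplakin (log2 difference 0.80, SE 0.14, adjusted p = 0.00844), Arc (log2 difference 0.74, SE 0.12, adjusted p = 0.0109), and the detoxifying enzymes Cyp2c65 (log2 difference 0.84, SE 0.15, adjusted p = 0.0109) and Ugt2b34 (log2 difference 0.75, SE 0.14, adjusted p = 0.0207) rose in 7 of 7 pairs. C4bp rose (log2 difference 0.98, SE 0.26, adjusted p = 0.0359) but was above 2 CPM in T69A only.

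The largest falls included Col7a1, the collagen of anchoring fibrils, which ranged from 3.31 to 21.6 CPM (median 11.4) in KO libraries, against 14.3, 25.2, 9.40 and 63.8 CPM in Rosa libraries (log2 difference -1.33, SE 0.30, adjusted p = 0.0387). KO libraries were lower in 7 of 7 pairs, with Rosa library 14 far above the rest. Spsb1, an adaptor of a ubiquitin ligase, ranged from 5.11 to 14.9 CPM (median 9.76) in KO libraries, against 24.96, 12.8, 22.6 and 32.3 CPM in Rosa libraries (log2 difference -1.22, SE 0.18, adjusted p = 0.00783). Each of the 7 KO libraries was below its Rosa library. Rgs2, which limits G protein signalling (log2 difference -1.08, SE 0.26, adjusted p = 0.0386), the receptor activity modifier Ramp1 (log2 difference -1.06, SE 0.19, adjusted p = 0.00925), the kinesins Kif3c (log2 difference -1.01, SE 0.22, adjusted p = 0.0277) and Kif1a (log2 difference -1.05, SE 0.18, adjusted p = 0.00756), Fam167a (log2 difference -1.07, SE 0.23, adjusted p = 0.0341) and Tbc1d9 (log2 difference -1.07, SE 0.22, adjusted p = 0.0148) fell in 7 of 7 pairs. Tbc1d9 and Kif1a were above 2 CPM in T12-LOH only.

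Markers of stellate cells also fell in the organoid fraction. Of 14 fibroblast and stellate markers measured, 6 fell. None fell without Rosa library 2, 1 without Rosa library 10, Rosa library 14 or KO library 4, and 3 without KO library 7 or 11. Col1a1, the collagen I chain, ranged from 0.341 to 3.06 CPM (median 0.754) in KO libraries, against 11.4, 1.64, 1.67 and 4.02 CPM in Rosa libraries (log2 difference -1.45, SE 0.28, adjusted p = 0.0128). Its mean was 1.32 CPM with KO PSCs and 4.68 CPM with Rosa PSCs, and the trace alone would give 1.7 CPM with KO PSCs and 4.9 CPM with Rosa PSCs. Col1a1 is itself among the genes from which the stellate share was estimated. The closeness of these levels is therefore partly built in and is no separate test of their source. Col3a1 (log2 difference -2.74, SE 0.68, adjusted p = 0.0355), Sparc, a matricellular protein (log2 difference -1.20, SE 0.32, adjusted p = 0.0349), and the filament protein Vim (log2 difference -1.04, SE 0.29, adjusted p = 0.0437) were below 5 CPM in every library, and Pdgfrb, the platelet-derived growth factor receptor, averaged 0.0393 CPM with KO PSCs and 0.211 CPM with Rosa PSCs and was not tested. Of the 1441 genes that passed, 41 were over 10 times higher in the PSC fraction, and 36 of these fell. In bulk libraries fewer cells of a type and less RNA per cell cannot be told apart. Of 25 genes of epithelial to mesenchymal transition and adhesion, 3 fell, namely Sparc, Vim and Pkp1, a desmosomal plakophilin (log2 difference -0.47, SE 0.11, adjusted p = 0.0324). They made up 12.0% of that list, against 6.05% of all genes tested. None of these 3 passed without Rosa library 2, Rosa library 14, KO library 4 or KO library 7. The epithelial marker Epcam averaged 765 CPM with KO PSCs and 821 CPM with Rosa PSCs and did not pass (adjusted p = 0.0658). The immune marker Cd68, a lysosomal protein, ranged from 10.3 to 17.8 CPM (median 12.7) in KO libraries, against 20.9, 18.9, 16.9 and 23.7 CPM in Rosa libraries (log2 difference -0.57, SE 0.07, adjusted p = 0.00215). It was lower in 7 of 7 pairs, while 2 of the 12 immune markers were at 0 in all libraries. The endothelial marker Flt1, a VEGF receptor, fell (log2 difference -0.58, SE 0.16, adjusted p = 0.0479).

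The PSC clones differed in the level of Egfr RNA, and the organoid response was also compared between them. In the PSC fraction Egfr had 59.7 to 105 CPM in clone A3, 118 to 220.4 CPM in clone B4, 112 CPM in clone C5 and 352 CPM in clone D4, against 287 to 328 CPM in PSC4 Rosa and 427 CPM in PSC5 Rosa. The level of the gene does not show whether its protein is made. Organoids with clone B4 and with clone A3 were compared in a fit of all 11 libraries, in which the T69A pair also informed the B4 effect. No gene differed between the clones at an adjusted p of 0.05 by edgeR, and DESeq2 called 21. At an unadjusted p of 0.05, 692 of 13939 genes passed, about the share of 0.05 that would pass with no difference.

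The KO effect with the PSC5 parent differed from that with PSC4 in 2 of 13939 genes (0.0143%), and both rest on Rosa library 14. At an unadjusted p of 0.05 by edgeR's test, 1164 of 13939 genes passed, above the share of 0.05 that would pass with no difference. The low adjusted count therefore does not show that the KO effect is the same with both parents. Library 14 is the only Rosa library with PSC5, so the fit cannot decide how widely the effects differ. Pif1, a DNA helicase, had 13.4 and 14.0 CPM in KO libraries 15 and 16, against 2.64 CPM in Rosa library 14, while the KO libraries with PSC4 clones ranged from 9.14 to 14.5 CPM and the other Rosa libraries had 8.39, 11.4 and 12.6 CPM (difference of the log2 effects 2.34, adjusted p = 0.00206). Lypd8, a secreted antibacterial protein of the gut, had 47.1 and 50.2 CPM in KO libraries 15 and 16, against 83.5 CPM in Rosa library 14 (difference of the log2 effects -1.31, adjusted p = 0.0310).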

How the data were processed

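RNA from 11 organoid libraries was quantified by the authors per transcript with Salmon 1.9.0 and builds GRCm39 and mm39, per the submitters' processing notes. The authors deposited estimated counts and TPM (length-scaled transcript abundance) for each transcript and library. The sources used here name no library kit, strandedness or transcript annotation, so reads of overlapping or near-identical genes may be divided among them. Estimated counts were summed per gene and rounded to whole numbers, with gene names from GENCODE M21 matched by transcript identifier. TPM was summed per gene only to set levels of different genes side by side. Depth is the sum of estimated counts per library and limits the precision of low genes.

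Low genes were removed with filterByExpr, libraries were scaled by TMM, and KO was tested against Rosa with edgeR 4.0.16 in R 4.3.3 (glmQLFit and glmQLFTest), with co-culture as block and Benjamini-Hochberg adjustment at 0.05. The fit, tested on simulated data with known changes, leaves 6 residual degrees of freedom. The differences between PSC parents and between clones came from contrasts in the same kind of fit. Per-library differences used log2(CPM + 0.5), with TMM scaling in the organoid fraction and library totals only for the list medians of the PSC fraction. A log2 difference is KO minus Rosa, and a standard error is that of the fitted coefficient. The stellate share was estimated from 27 genes with at least 50 CPM in Rosa PSC libraries and at least 20 times the organoid level there. It is the median level of these genes in an organoid library, as a percent of their mean level in Rosa PSC libraries. Multiplied by a gene's level in the PSC library of the same co-culture and PSC line, it gives the level the trace would supply. Alternatives included DESeq2 1.42.0, limma 3.58.1, other scalings, filters and blocks, and leaving out each library. The groups were compared over libraries and not over genes.

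Genes named with values were the 12 largest changes per direction with a mean of at least 2 log2 CPM and 1 direction in all co-cultures, up to 5 members of each list with the smallest p, all changed members of the marker and growth factor lists, the 5 smallest p-values per direction, and Egfr, Mki67, Vegfa, Ccn1, Ccn2, Epcam, Krt19, Col1a1 and Pdgfrb. Some genes that meet this rule are not reported here. Some others were named after their values were seen, among them those given without values. The libraries, gene lists and tests were chosen with earlier results of these data known. Promoter windows are RefSeq sequences of GRCm38.p6, and no coordinate was converted between builds.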

Additional observations from a re-analysis of the deposited data

Results flagged for a closer look

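In a screen of 203 values or lists for a library that stood apart from the rest of its group, 11 (5.42%) were marked, and chance marks about 1 in 20 groups. KO library 4, the only KO library of T69A, stood apart for Dsg3 (log2 difference from its own Rosa library -1.864), Vim (-1.537), Rhbdf1, an inactive rhomboid that governs the ligand sheddase (-0.3926), and Ces2g (1.065). The same library stood apart in the median of the Wnt and stem cell list (-0.4148) and of the mitochondrial DNA genes (-0.6091). KO library 16, T6-LOH with clone D4, stood apart for Ifit3 (-4.673) and H2-K1 (-0.6704) and in the medians of the interferon-stimulated genes (-2.803) and of MHC class I and PD-L1 (-0.9314). Its PSC partner had the lowest interferon median of the 7 KO cultures, and clone D4 held the highest Egfr level of the KO clones. Among the Rosa libraries, library 10 had summed fibroblast and stellate markers of 559.6 CPM, above the other 3. It is the only Rosa library of T12-LOH, whose KO libraries had 317.4 and 462.8 CPM. Fn1, which encodes fibronectin, made up 507.7 CPM of the sum in library 10, where the stellate share was 0.0562%.

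The KO effect differed between the PSC5 and PSC4 parents for Pif1 (difference of the log2 effects 2.344) and Lypd8 (-1.315), both by edgeR's quasi-likelihood test. The medians of 2 lists were on opposite sides of 0 in all libraries of T12-LOH and of T6-LOH, a difference that was not tested: for cholesterol and fatty acid synthesis T12-LOH was 0.0695 above T6-LOH, and for the circadian clock it stood at -0.4405 relative to T6-LOH.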

How the results depend on the processing

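The count of 1441 genes became 821 with the organoid line as block in place of the co-culture, 629 with KO libraries of a co-culture summed, 445 without the T69A co-culture, 370 without clone A3, 189 without the PSC5 co-culture and 0 without a block, and ran from 214 (without Rosa library 14) to 1910 (without Rosa library 6) when single libraries were left out. Other scalings, DESeq2, limma with or without the PSC line as a random effect, both filters, leaving out clone B4 and leaving out genes over 10 times higher in PSCs stayed within 1.5 times of it. The genes were not all the same: without clone B4, 990 passed, of which 703 were among the 1441 in the same direction. The other settings just named shared 1272 to 1412 genes with the 1441. The 2 genes that differed between parents became 23 with DESeq2, 20 without a filter and 1 to 7 without single libraries; without Rosa library 14 that difference has no value. The clone difference gave 21 genes with DESeq2, 10 without a filter and 0 to 2 without single libraries. The log2 difference in stellate share ran from -1.31 to -0.99 without single libraries, with exact permutation p from 0.0278 to 0.167, the highest without Rosa library 6. The mitochondrial share differed by -0.139 percentage points with all libraries and by -0.363 to 0.126 without single ones, the positive value (exact permutation p = 0.333) without Rosa library 2 or KO library 4. Over 4285 values of 167 genes under 26 settings, none changed sign, 1227 no longer passed and 22 came to pass. These genes were named mostly for a small p or a large change in the same libraries. That their signs held is therefore no separate support. The causes of the shifts were not tested. The library numbers pair no samples; the pairing comes from the co-culture, which is the block, and the fit with KO libraries summed compares 4 such pairs. Precision is limited by the 4 Rosa libraries, each shared by its KO libraries, and genes of a few CPM, among them most interferon genes, rest on few counts.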
